A study of Mus musculus with 46 samples.

Results

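The genes examined were 10 of the Wnt pathway, namely 7 secreted antagonists (Wif1, Dkk2, Dkk3, Sfrp1, Sfrp2, Sfrp4 and Frzb), the receptors Lrp4 and Fzd9, and the feedback gene Axin2. They were taken by symbol from the 29871 genes of the expression table, and all 10 had a row. Levels are CPM, reads per 1000000 reads of a cell. Each of the 46 samples is 1 fluorescent cell picked from the cochlea of C57BL/6 mice at postnatal day 10. The mice were Dio2creERt2:Ai6, heterozygous for the Dio2 allele, in which a tamoxifen-inducible Cre recombinase sits at the type 2 deiodinase gene, and they carried the Ai6 reporter, which turns on a green fluorescent protein where Cre has acted and in descendants of those cells. Fluorescence therefore marks present or past Cre activity and does not require Dio2 mRNA at the time of picking. The question of the study was which cochlear cell types express Dio2.

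The cells were placed in classes by 3 marker genes. Ibsp, a bone matrix gene, was at 1000 CPM or more in 12 cells, here called Ibsp-high. Otos, which encodes otospiralin of cochlear fibrocytes, was at 1000 CPM or more in 9 cells, called Otos-high. C1qb, a complement gene of macrophages, was at 500 CPM or more in 4 cells, called C1qb-high. The remaining 21 cells are called the rest, and no cell passed more than 1 limit. Leaving out the gene that defines each class, Ibsp-high cells had 5 to 8 of 8 osteoblast markers above background, Otos-high cells had 7 of 7 fibrocyte markers in every cell, and C1qb-high cells had 5 or 6 of 6 macrophage markers. Markers of other types were also present. Ibsp-high cells had 2 to 5 of 8 fibrocyte markers, with Coch and Pou3f4 in 12 of 12, Otos-high cells had 3 to 5 of 6 chondrocyte markers, and C1qb-high cell 43 had 4 fibrocyte markers. Their part in the results was not tested. The rest was mixed, with 0 to 8 fibrocyte markers, 0 to 5 of 6 chondrocyte markers, 0 to 5 of 6 general fibroblast markers and 0 to 6 osteoblast markers per cell. Values next to the limits were 7618 CPM inside and 107 CPM outside for Ibsp, 1213 (cell 31) and 112 CPM for Otos, and 3048 and 148 CPM (cell 22) for C1qb.

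All cells carry 1 label and no animal is named, so they count as 1 sample and no test between classes was possible. Standard deviations are over cells and p-values are not given. A cell is counted as above background for a gene at 10 CPM or more and at 1% or more of that gene's mean over all cells. Cells had 2522853 to 10350249 reads in the listed genes, with class medians of 4507834 (Ibsp-high), 5081203 (Otos-high), 4331868 (C1qb-high) and 5333920 (the rest). Ibsp-high cells are numbers 1 to 12, Otos-high cells numbers 23 to 29, 31 and 32, and C1qb-high cells numbers 43 to 46. What sets the numbering is not given in the sources used here, so class and position in the numbering cannot be told apart.

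Wnt ligands are secreted proteins that bind a Frizzled receptor together with the co-receptor LRP5 or LRP6, which stabilises beta-catenin and turns on target genes through TCF/LEF factors. Secreted antagonists act at this first step. WIF1 and the secreted Frizzled-related proteins bind Wnt ligands outside the cell, while Dickkopf proteins such as DKK2 bind the LRP co-receptors. In bone this pathway promotes the formation of osteoblasts and bone mass.

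The promoters of Wif1, found mostly in Ibsp-high cells, and of Fzd9, found in all Otos-high cells, are shown with that of Frzb, which was found in 3 of the 4 classes. Each runs from 250 bases before to 50 bases after the gene's start, in RefSeq on GRCm38.p6. Capitals mark CG dinucleotides in Wif1 (chr10:121033754-121034053, plus strand) and Fzd9 (chr5:135250998-135251297, minus strand), and the letters TCAAAG in Frzb (chr2:80447347-80447646, minus strand).
Wif1: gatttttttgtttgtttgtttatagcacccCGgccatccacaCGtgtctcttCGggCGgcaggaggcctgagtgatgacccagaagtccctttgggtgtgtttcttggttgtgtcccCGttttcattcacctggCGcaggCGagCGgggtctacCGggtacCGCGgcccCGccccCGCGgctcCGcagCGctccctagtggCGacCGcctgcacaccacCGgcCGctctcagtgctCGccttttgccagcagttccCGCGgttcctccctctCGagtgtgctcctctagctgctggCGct
Fzd9: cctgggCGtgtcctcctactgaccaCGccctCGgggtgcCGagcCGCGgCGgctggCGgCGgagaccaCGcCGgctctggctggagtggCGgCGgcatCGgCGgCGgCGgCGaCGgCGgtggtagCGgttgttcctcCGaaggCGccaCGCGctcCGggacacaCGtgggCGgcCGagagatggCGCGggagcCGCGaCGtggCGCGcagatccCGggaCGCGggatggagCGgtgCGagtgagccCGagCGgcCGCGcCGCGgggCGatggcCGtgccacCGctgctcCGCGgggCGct
Frzb: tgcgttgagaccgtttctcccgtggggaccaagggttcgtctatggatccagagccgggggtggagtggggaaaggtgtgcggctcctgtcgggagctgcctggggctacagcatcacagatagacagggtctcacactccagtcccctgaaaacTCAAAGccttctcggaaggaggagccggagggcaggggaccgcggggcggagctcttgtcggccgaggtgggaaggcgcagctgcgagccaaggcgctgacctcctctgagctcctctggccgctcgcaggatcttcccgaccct
The Fzd9 window held 53 CG dinucleotides, a count reached by 0.451% of the 32851 promoters in the same table, whose median was 7. The Wif1 window held 25, reached by 18.4% of promoters. The core letters bound by TCF/LEF factors (CTTTGA, or TCAAAG on the other strand) were searched in the 6 member promoters that the table holds, those of Wif1, Fzd9, Frzb, Sfrp2, Dkk2 and Axin2. They occurred in 1 of the 6, Frzb, 95 bases before the RefSeq start, and in 16% of all promoters. The RefSeq start of Frzb lies 229 bases inside the gene as GENCODE places it, so these letters fall within the GENCODE gene. For Fzd9 and Wif1 the RefSeq start lies 183 and 44 bases inside it. The core of Runx factors (TGTGGT, or ACCACA) occurred in 0 of the 6 and in 16.8% of all promoters.

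**Figure D1:**
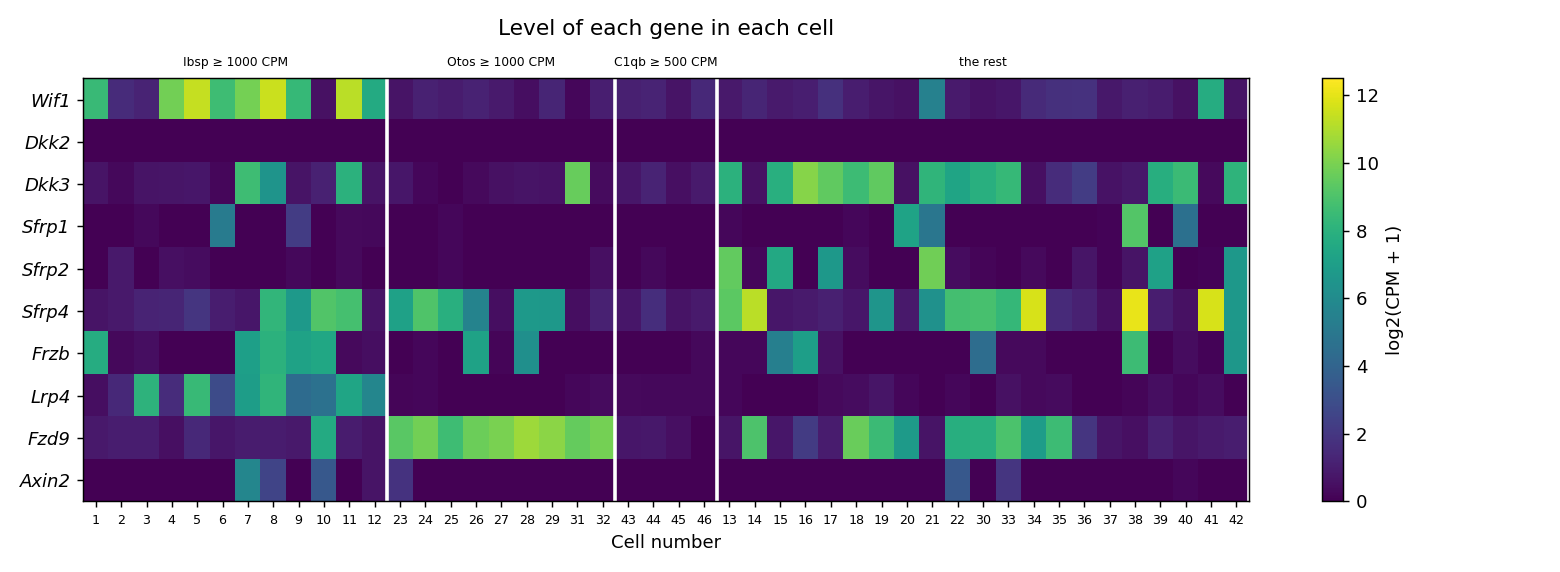
Level of each of the 10 genes (rows) in each of the 46 cells (columns, numbered), on the log2(CPM + 1) scale given by the colour bar, with classes separated by white lines. Wif1 and Lrp4 are high mainly in Ibsp-high cells, Fzd9 is high in all 9 Otos-high cells, the 4 C1qb-high cells hold none of the genes above 2.13 CPM, and Dkk2 has no read anywhere.

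Wif1 (NCBI Gene 24117, chromosome 10, 121033960 to 121100650 on GRCm38, plus strand) encodes Wnt inhibitory factor 1, which binds Wnt ligands directly. It was above background in 9 of 12 Ibsp-high cells (75%, exact 95% interval 42.8% to 94.5%), 0 of 9 Otos-high cells (0% to 33.6%), 0 of 4 C1qb-high cells (0% to 60.2%) and 2 of 21 cells of the rest (9.52%, 1.17% to 30.4%). Intervals here and below cover counting error only. Across Ibsp-high cells it ranged over 0.489, 371 and 2886 CPM (lowest, median and highest), against 0.484, 0.906 and 215 CPM in the rest. The classes overlapped, since 3 Ibsp-high cells were at background and cell 41 of the rest, at 215 CPM, lay above Ibsp-high cell 12, at 198 CPM. Cells 2, 3 and 10 had Wif1 at 1.95, 1.40 and 0.489 CPM, with Ibsp at 145198, 56554 and 8534 CPM, so absence of Wif1 was seen at both high and low Ibsp. Among the 9 cells with Wif1 it ran from 198 CPM in cell 12 to 2886 CPM in cell 8. Outside the Ibsp-high cells, Wif1 was found in cell 21 (43.9 CPM) and cell 41 (215 CPM). Of the 9 osteoblast markers, 4 were above background in cell 21 and 2 in cell 41. The bone matrix gene Dmp1 was at 6361 and 2187 CPM in them, while Ibsp was at 27.5 and 32.3 CPM and Bglap2 at 8.02 and 6.87 CPM. Dmp1 did not set these cells apart, being above background in 7 of 12 Ibsp-high, 4 of 9 Otos-high and 13 of 21 cells of the rest.

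The mean of Wif1 on the log2(CPM + 1) scale was 5.97 higher in Ibsp-high cells than in the rest (7.52 against 1.56, pooled SD over cells 2.80, n = 12 and 21). This scale understates differences of low genes. A gene was counted as different at 2 log2 units or more and at least 1 CPM in 75% of cells in whichever class was higher. By that rule 2 of the 10 genes, Wif1 and Lrp4, were higher in Ibsp-high cells and none was lower, against 3.34% higher and 1.67% lower among the 11447 genes entered. Of the 10 genes, 9 entered this comparison, Dkk2 having no read. Wif1 was 6.64 higher in Ibsp-high than in Otos-high cells (7.52 against 0.88, pooled SD 3.10).

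Lrp4 (chromosome 2, 91457511 to 91513779, plus strand) encodes a receptor of the LDL receptor family that binds the Wnt inhibitors sclerostin and Dickkopf 1 in bone. It was above background in 8 of 12 Ibsp-high cells (66.7%, 34.9% to 90.1%) and in no cell of any other class. Ibsp-high cells had 0.396, 38 and 346 CPM (lowest, median and highest). The highest value elsewhere was 0.271 CPM in Otos-high cells, 0.233 CPM in C1qb-high cells and 0.612 CPM in the rest. Cells 1, 2, 4 and 6 of the Ibsp-high class, at 0.396 to 6.16 CPM, were below the limit of 10 CPM. Lrp4 reached 1 CPM in 11 of 12 Ibsp-high cells. It therefore met the share of 75% in the rule at 1 CPM, but would not have met it at 10 CPM. In CPM every Ibsp-high cell exceeded every Otos-high cell, as for 0.157% of the genes entered, but Ibsp-high cell 1 and Otos-high cell 32 each had 2 reads and differed only in depth, so nothing is read from that separation. Lrp4 was 4.80 log2 units higher in Ibsp-high cells than in the rest (5.02 against 0.22, pooled SD 1.72). Against Otos-high cells it was 4.90 higher (5.02 against 0.11, pooled SD 2.19). Wif1 and Lrp4 were not in the same Ibsp-high cells throughout. They occurred together in 6 cells, which is 54.5% of the 11 Wif1 cells and 75% of the 8 Lrp4 cells. Cells 3 and 10 had Lrp4 (274 and 24.5 CPM) without Wif1, and cells 1, 4 and 6 had Wif1 (349, 902 and 393 CPM) without Lrp4.

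Fzd9 (chromosome 5, 135248938 to 135251230, minus strand) encodes Frizzled 9, a cell surface receptor for Wnt ligands. All 9 Otos-high cells had it (100%, 66.4% to 100%), as did 1 of 12 Ibsp-high cells (8.33%, 0.211% to 38.5%), 0 of 4 C1qb-high cells and 9 of 21 cells of the rest (42.9%, 21.8% to 66.0%). The lowest, median and highest levels were 386, 902 and 1637 CPM in Otos-high cells, against 0.433, 2.75 and 807 CPM in the rest. The rest was split, since 9 of its cells had 112 to 807 CPM and the other 12 had at most 3.44 CPM. Otos-high cells and the rest overlapped between 386 and 807 CPM. On the log2 scale Fzd9 was 5.66 higher in Otos-high cells than in the rest (9.76 against 4.11, pooled SD 3.17, n = 9 and 21). It was the 1 gene of the 10 to pass the rule as higher there, against 3.29% of genes entered, and none of the 10 passed as lower, against 1.22%. The difference of Fzd9 in Ibsp-high minus Otos-high cells was -8.30 log2 units (1.46 against 9.76, pooled SD 1.54). In that comparison Wif1 and Lrp4 were higher and Fzd9 lower by the rule, against 4.39% and 4.67% of genes entered. The exception among Ibsp-high cells was cell 10, with 196 CPM, still below every Otos-high cell. Such separation without overlap, lower in Ibsp-high cells, was seen for 0.358% of genes. The comparisons of Ibsp-high and of Otos-high cells with the rest share the 21 cells of the rest.

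Wif1 and Fzd9 were never above background in the same cell. Wif1 had 11 cells, Fzd9 had 19, and 16 cells had neither. Among the 4244 genes above background in at least as many cells as Fzd9, 0.0707% shared no cell with Wif1. Fzd9 also shared no cell with Sfrp2, which was found in 6 cells, and 0.236% of the same genes shared none with Sfrp2. Genes found in most cells must share a cell with either gene, which lowers both shares by construction. Of the Wif1 cells, 9 were Ibsp-high, a class with Fzd9 in 1 of 12 cells, so class and this pattern cannot be told apart. These pairs were picked after the values were seen. Fzd9 and Sfrp4 occurred together in 13 cells, 68.4% of the Fzd9 cells and 61.9% of the 21 Sfrp4 cells. Of these, 6 were Otos-high, a class in which all 9 cells had Fzd9. In the rest they shared 6 cells, with Sfrp4 in 11 and Fzd9 in 9 of 21. The share of other genes with as large an overlap was not computed, so nothing is read from this pair.

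**Figure D2:**
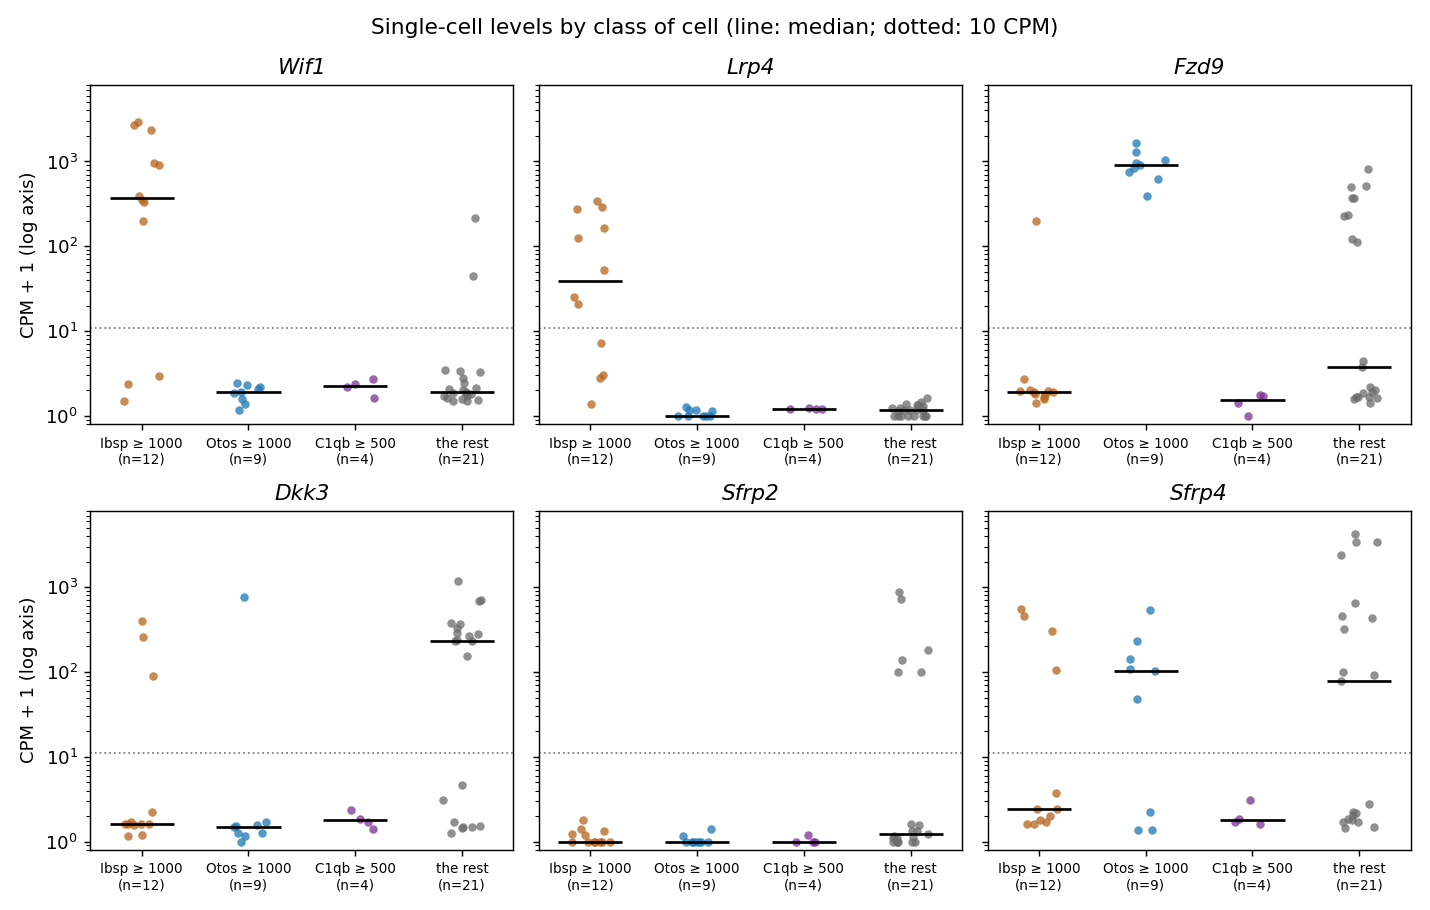
CPM + 1 on a log axis for 6 of the genes, 1 point per cell, by class from left to right (12 Ibsp-high, 9 Otos-high and 4 C1qb-high cells, then the rest of 21 cells). Horizontal lines are medians and the dotted line is 10 CPM. The Wif1 median is 371 CPM in Ibsp-high cells, the Fzd9 median is 902 CPM in Otos-high cells, and most genes fall into cells with more than 20 CPM and cells at background, with few values between.

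Sfrp4 (chromosome 13, 19623104 to 19632994, plus strand) encodes a secreted Frizzled-related protein, which carries a Frizzled-like domain that binds Wnt ligands. It was the most widespread of the 7 antagonists, above background in 21 of 46 cells (45.7%, 30.9% to 61.0%). These were 4 of 12 Ibsp-high, 6 of 9 Otos-high, 0 of 4 C1qb-high and 11 of 21 cells of the rest. The medians were 1.41 CPM in Ibsp-high cells, 102 CPM in Otos-high cells and 78.3 CPM in the rest, with highest values of 552, 531 and 4283 CPM. Cells 14, 34, 38 and 41 of the rest stood above all others at 2368, 3378, 4283 and 3390 CPM. The next cell was cell 13 with 648 CPM. In those 4 cells, picked after the values were seen, Dkk3 was at most 0.722 CPM. Sfrp4 and Dkk3 did not exclude each other, since they occurred together in 9 of the 46 cells. In the rest they shared 7 cells, with Sfrp4 in 11 and Dkk3 in 13 of 21. Decorin (Dcn), a proteoglycan gene of fibroblasts, was at 11292, 20884, 1207 and 19448 CPM in cells 14, 34, 38 and 41. Of the 21 cells with Sfrp4, all had Dcn above background, as had 36 of the 46 cells, so the Sfrp4 cells were 58.3% of the Dcn cells. The difference of Sfrp4 was -1.82 log2 units between Ibsp-high cells and the rest (pooled SD 4.22) and -0.25 between Otos-high cells and the rest (pooled SD 4.24), both smaller than the spread over cells.

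The other genes of this family were in fewer cells. Frzb (secreted Frizzled-related protein 3; chromosome 2, 80411970 to 80447625, minus strand) is best known from cartilage and was above background in 12 cells, namely 5 of 12 Ibsp-high, 2 of 9 Otos-high and 5 of 21 cells of the rest. Its levels in those cells were 130 to 259 CPM in Ibsp-high cells, 73.5 and 146 CPM in Otos-high cells and 21.3 to 375 CPM in the rest. The Ibsp-high cells and the rest differed by 1.63 log2 units, less than the pooled SD of 3.19. Sfrp1 (chromosome 8, 23411502 to 23449632, plus strand) was above background in 5 cells, at 36.1 CPM in cell 6 (Ibsp-high) and at 150, 29, 576 and 23.4 CPM in cells 20, 21, 38 and 40 of the rest. Those 5 cells had no other antagonist in common, and the highest Sfrp1 and the highest Sfrp4 were in the same cell, number 38.

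Sfrp2 (chromosome 3, 83766321 to 83774316, plus strand) was found in the rest alone, in 6 of its 21 cells (28.6%, 11.3% to 52.2%). The levels were 728, 183, 100.2, 873, 139 and 99.1 CPM in cells 13, 15, 17, 21, 39 and 42. The highest value in any other class was 0.780 CPM, in an Ibsp-high cell. The 6 cells are a minority of the rest and did not meet the share of 75% in the rule, at differences of -2.21 for Ibsp-high cells and -2.32 for Otos-high cells, each minus the rest. Sfrp2 overlaps the antisense gene Gm26771, and the use of strand in counting is not given in the sources used here, so reads of the pair cannot be told apart.

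Dkk3 (chromosome 7, 112116017 to 112159057, minus strand) encodes a secreted protein of the Dickkopf family that, unlike DKK2, is not known as a strong blocker of the LRP co-receptors. It was above background in 3 of 12 Ibsp-high cells (25%, 5.49% to 57.2%), 1 of 9 Otos-high cells (11.1%, 0.281% to 48.2%), 0 of 4 C1qb-high cells and 13 of 21 cells of the rest (61.9%, 38.4% to 81.9%). Ibsp-high cells had 0.171, 0.603 and 395 CPM (lowest, median and highest), Otos-high cells 0, 0.496 and 762 CPM, and the rest 0.261, 234 and 1188 CPM. The 1 Otos-high cell with Dkk3 was cell 31, whose Otos of 1213 CPM was the nearest to the limit. The difference of Dkk3 from the rest was -3.17 log2 units in Ibsp-high cells (2.41 against 5.57, pooled SD 3.63) and -4.12 in Otos-high cells (1.46 against 5.57, pooled SD 3.62). Neither difference passed the rule, because fewer than 75% of the cells of the rest had 1 CPM. All 6 cells with Sfrp2 also had Dkk3, which is 35.3% of the 17 Dkk3 cells. Among 5086 genes above background in 6 to 17 cells, 0.177% held all the Sfrp2 cells, a pattern picked after the values were seen. Dkk3 lies at the top of that range, and genes in fewer cells have less room to hold all 6, which lowers this share.

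The rest was divided further by Car3, a carbonic anhydrase gene of fibrocytes, a split added after the data were seen. Car3 also ran from 84.5 CPM (cell 8) to 19274 CPM (cell 4) in Ibsp-high cells, so here it does not mark fibrocytes alone. With Car3 at 1000 CPM or more, 8 of 9 cells had Dkk3 (median 332 CPM), against 5 of 12 cells with less Car3 (median 2.86 CPM). Fzd9 was found in 5 of 9 and 4 of 12 of these cells, Sfrp2 in 3 of 9 and 3 of 12, and Sfrp4 in 5 of 9 and 6 of 12. Sfrp1 was found in 0 of 9 and 4 of 12, and all 4 of the highest Sfrp4 cells except cell 14 had Car3 under 1000 CPM. Dkk3 was the gene of the 10 with the largest difference in mean between the Car3 groups, 7.83 ± 2.84 against 3.88 ± 3.67 on the log2 scale (SD, n = 9 and 12).

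Dkk2 (chromosome 3, 132085292 to 132180304, plus strand), the Dickkopf protein that acts on the LRP co-receptors, had no read in any of the 46 cells (exact 95% interval 0% to 7.71%), a limit on cells with a read and not on cells that express the gene. Axin2 (chromosome 11, 108920349 to 108950783, plus strand) encodes a scaffold of the complex that degrades beta-catenin and is a widely used readout of Wnt signalling, since the pathway induces it. Only cell 7, which is Ibsp-high, was above background, at 53.0 CPM or 228 reads. Low values were seen in cell 10 (9.78 CPM, 40 reads) and cell 22 (9.75 CPM, 57 reads), and 38 of the 46 cells had no read. Axin2 overlaps the antisense gene Gm11670 and the same limit on strand applies.

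Read as the antagonists of each cell, 10 of 12 Ibsp-high cells (83.3%, 51.6% to 97.9%), 7 of 9 Otos-high cells (77.8%, 40% to 97.2%), 0 of 4 C1qb-high cells (0% to 60.2%) and 18 of 21 cells of the rest (85.7%, 63.7% to 97.0%) held at least 1 of the 7. The median number per cell was 2 in Ibsp-high cells, 1 in Otos-high cells, 0 in C1qb-high cells and 2 in the rest, and the most was 5, in cell 21. More than 1 antagonist was held by 7 of 12 Ibsp-high, 2 of 9 Otos-high and 14 of 21 cells of the rest. Cells with none were 2 and 3 (Ibsp-high), 27 and 32 (Otos-high), all 4 C1qb-high cells and 35, 36 and 37 of the rest. In the C1qb-high cells no gene of the 10 exceeded 2.13 CPM, or 11 reads.

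To compare genes with each other, CPM was divided by the length in kilobases of the longest coding transcript. On this scale Wif1 led in all 9 Ibsp-high cells that held it, with 66.1% to 100% of the summed antagonist level, and Sfrp4 led in cell 10. In Otos-high cells Sfrp4 led in 5, Frzb in 1 (cell 26) and Dkk3 in 1 (cell 31). The rest was led by Dkk3 in 7 cells, Sfrp4 in 6, Sfrp2 in 4 and Sfrp1 in 1 (cell 20). With the shortest coding transcript of each gene, which is much shorter for Sfrp4, Sfrp4 led in 15 cells instead of 12 over all cells and Dkk3 in 6 instead of 8, while Wif1 led in 9 either way.

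**Figure D3:**
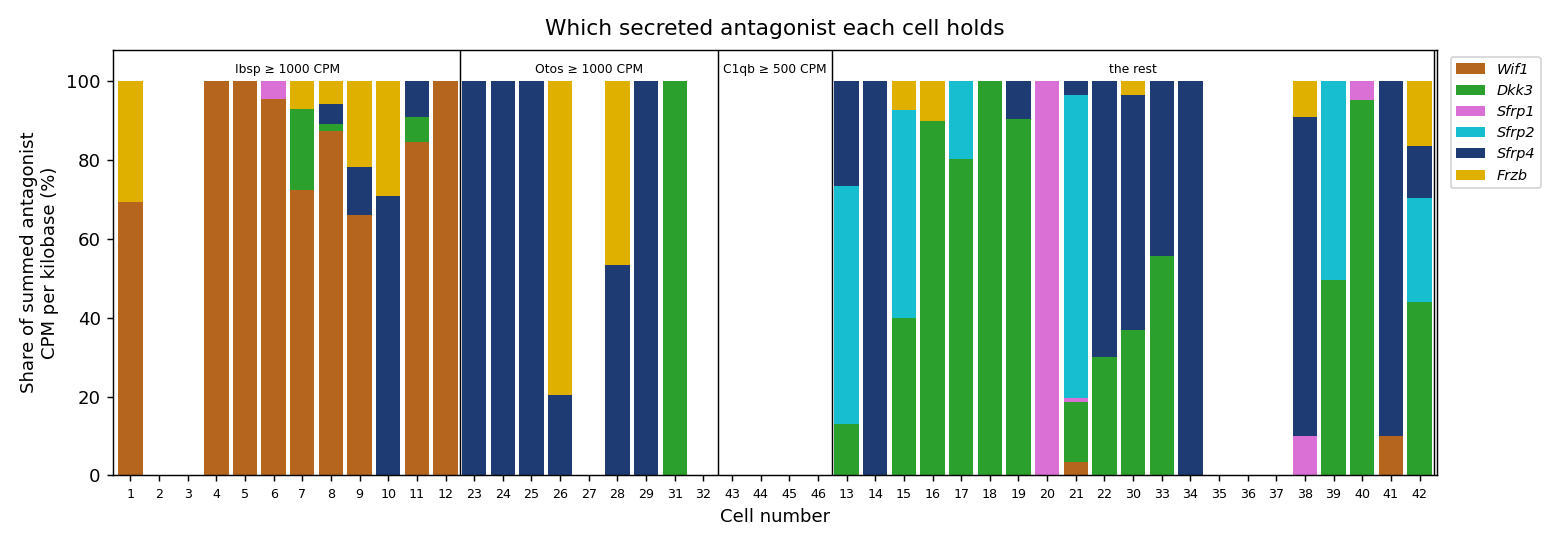
Share of the summed level (CPM per kilobase of transcript) of the secreted antagonists above background that each contributes in each cell, with cells in columns by class. Wif1 makes up 66.1% to 100% of it in 9 of the 12 Ibsp-high cells, Sfrp4 is the largest part in 5 of the 9 Otos-high cells, cells of the rest are led by Dkk3, Sfrp4, Sfrp2 or Sfrp1 with smaller parts of Frzb and Wif1 in some, and columns without a bar are cells with none.

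The wider pathway was described with 98 genes in 5 lists by role, of which 65 entered the comparisons. Of these, 7 were higher and 5 lower in Ibsp-high cells than in the rest by the rule, against 3.34% and 1.67% of all genes entered, with a median of 0.31 against 0.09 over all genes. The same background applies to the counts by list that follow. Targets and feedback genes accounted for 4 of the higher genes and none of the lower among 18 listed (13 entered), with a list median of 2.01. They were Lef1 (3.0), Wisp1 (2.43), Twist1 (2.11) and Tcf7 (2.09). Nkd1 (-1.91), Apcdd1 (-1.31) and Bmp4 (-1.16) of the same list went the other way without passing the rule. The other entered genes of the list were higher in mean without passing it. Axin2, which is not in the list, was above background in 1 of 12 Ibsp-high cells. LEF1 and TCF7 are nuclear partners of beta-catenin. Wisp1, a matricellular gene induced by Wnt signalling, was above background in 12 of 12 Ibsp-high cells (median 1618 CPM), 4 of 9 Otos-high cells (3.47 CPM), 0 of 4 C1qb-high cells (2.37 CPM) and 17 of 21 cells of the rest (553 CPM). Of 21 cytoplasmic and nuclear genes, 3 were higher, the beta-catenin gene Ctnnb1 (2.7) with Lef1 and Tcf7, and none was lower. Ctnnb1 had a median of 999 CPM in Ibsp-high cells and 308 CPM in the rest.

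Among 25 receptor genes (17 entered), 2 were higher and 3 lower in Ibsp-high cells than in the rest. Lgr4, a receptor for R-spondins, which strengthen Wnt signalling, differed by 4.70 and was found in 10 of 12 Ibsp-high and 3 of 21 cells of the rest. Ryk, a receptor for Wnt5a, differed by 3.48 and was found in 10 of 12 and 8 of 21. Fzd7 went the other way by -4.97, with 1 of 12 Ibsp-high and 16 of 21 cells of the rest, as did Fzd2 (-3.52, 2 of 12 and 15 of 21) and the glypican gene Gpc4 (-2.12). Fzd7 and Fzd2 were also lower in Otos-high cells than in the rest, with differences of -4.15 and -2.75. While Fzd9 was in 9 of 9 Otos-high cells, none of the 25 listed receptor genes was in more than 6 of them, the count of the co-receptor gene Lrp6. Of 21 ligand and secretion genes (9 entered), none was higher and 2 were lower in Ibsp-high cells than in the rest, Wnt5a (-3.04) and Wls (-2.92), which encodes the carrier needed to secrete Wnt proteins. Wnt5a was the most widespread ligand, above background in 7 of 12 Ibsp-high, 9 of 9 Otos-high, 1 of 4 C1qb-high and 20 of 21 cells of the rest. Wnt5b was above background in 7 of 12 Ibsp-high, 1 of 9 Otos-high, 0 of 4 C1qb-high and 2 of 21 cells of the rest.

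Otos-high cells had 0 of the 65 genes higher and 6 lower than the rest, against 3.29% and 1.22% of all genes entered, with a median of -0.35 against -0.05 over all genes. The lower genes were Fzd7, Wisp1 (-3.25), Fzd2, Gpc4 (-2.68), Igfbp4 (-2.65), an IGF-binding protein that can also inhibit Wnt signalling, and Wls (-2.11). Set directly against Otos-high cells, Ibsp-high cells had 7 genes higher and 3 lower, against 4.39% and 4.67% of all genes entered. Wisp1 (5.68), Tcf7 (4.38), Lgr4 (4.24) and Ryk (3.51) were higher, and Shisa2 (-3.12), whose product retains Frizzled receptors inside the cell, and Wnt5a (-2.89) were lower. C1qb-high cells had 1 gene higher than the rest, Apc (4.77), and 8 lower, led by Wls (-6.49). Of the 10 genes none passed the rule between C1qb-high cells and the rest, against 10.7% of genes higher and 5.1% lower. The higher genes numbered 1221, and 782 without cell 45. Among other secreted antagonists, the sclerostin gene Sost had no read in any cell, and Dkk1 was above background in 3 of 12 Ibsp-high, 0 of 9 Otos-high, 0 of 4 C1qb-high and 1 of 21 cells of the rest. The antagonist gene Notum was above background in 4 of 12 Ibsp-high, 3 of 9 Otos-high, 0 of 4 C1qb-high and 1 of 21 cells of the rest. Sost, Dkk1, Notum, Apc, Nkd1 and Bmp4 were named after their values were seen.

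**Figure D4:**
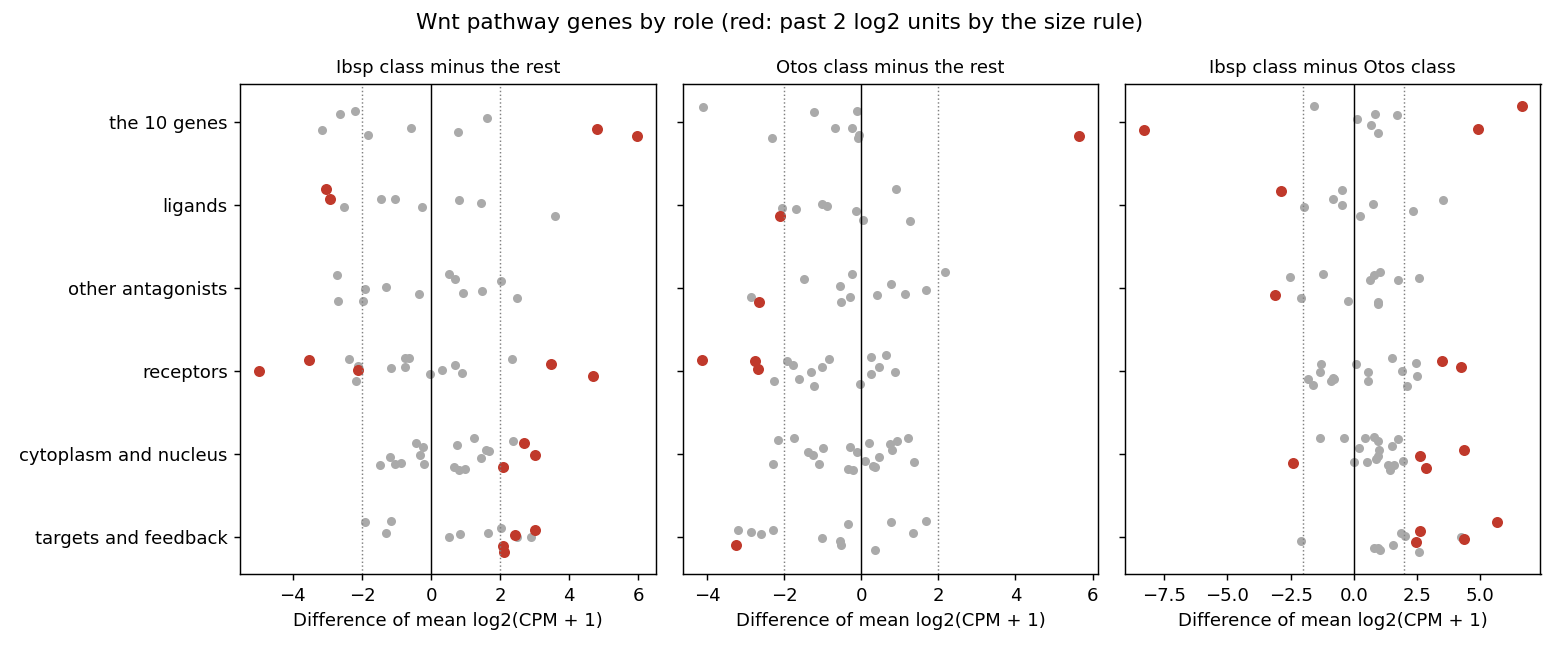
Difference of mean log2(CPM + 1) for the 10 genes and for each list of Wnt pathway genes, 1 point per gene, in 3 comparisons of classes. Red points pass the rule of 2 log2 units with 75% of cells, and dotted lines mark 2 units either way. Wif1 (5.97) and Lrp4 (4.80) lie right in the left panel, Fzd9 (5.66) in the middle panel, and Fzd9 (-8.30) lies at the far left of the right panel.

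The genes whose levels followed each member most closely over the 46 cells were ranked by Spearman correlation among 10217 genes. All values come from the same cells and classes, so they share class, depth and numbering, and are given as a description. Many of the ranked levels lie at background. Wif1 was above background in 11 and Lrp4 in 8 of the 46 cells, while Sfrp1 had no read in 33 and Sfrp2 none in 23. The correlations therefore rest in part on the order of such low values. Fzd9 had the closest companions, Fbxo2 (0.76), Gpm6b (0.73) and Serpine2 (0.71). Lrp4 was followed by Ibsp itself (0.73), the neuropilin gene Nrp2 (0.69) and the potassium channel gene Kcnma1 (0.67). Wif1 was followed by the prostacyclin synthase gene Ptgis (0.68), the type I collagen gene Col1a1 (0.66) and Ibsp (0.62). Sfrp4 had Htra1 (0.59), a secreted protease gene, Fam180a (0.59) and Pgam1 (0.52). For Dkk3, Frzb, Sfrp1 and Sfrp2 the highest values were 0.54, 0.54, 0.59 and 0.53, with Snai1, Lmo4, Proser2 and Akap7.

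Dio2 was above background in 23 of the 46 cells. It was found in 7 of the 11 Wif1 cells (63.6%), 7 of the 8 Lrp4 cells (87.5%), 10 of the 19 Fzd9 cells (52.6%) and 10 of the 17 Dkk3 cells (58.8%), which are 30.4%, 30.4%, 43.5% and 43.5% of the Dio2 cells. Dio2 was also in 12 of 21 Sfrp4, 8 of 12 Frzb, 4 of 6 Sfrp2 and 3 of 5 Sfrp1 cells and in the 1 Axin2 cell. All 8 Lrp4 cells were Ibsp-high, so the share of Dio2 in them is best set beside the other cells of that class. Of the Ibsp-high cells without Lrp4, cell 1 had Dio2 at 545 CPM. Cells 2, 4 and 6 had 0.195, 0.404 and 0.342 CPM. These are few cells, looked at after the values were seen, and a link of Dio2 with Lrp4 was not tested.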

How the data were processed

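Single cells were profiled by full-length cDNA sequencing (SMART-Seq v4 and ThruPLEX kits, per the labels' protocols). bcl2fastq 2 and STAR 2.7.3a and the builds GRCm38 and mm10 are named in the submitters' processing notes. For the counting program, the annotation and strandedness the entry is: not given in the sources used here. Deposited values are CPM, per the file headers, and the authors' total per cell also held reads outside the listed genes, which sum to 86.4% to 93.5% of 1000000. Divided by the smallest value of its cell, each value above 0 came out whole (100%, tolerance 0.01 read), which gave the reads per cell. No molecular identifiers are given, so reads are not independent molecules. With 1 sample a count test has no residual degrees of freedom.

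Genes at 1 CPM or more in 5 or more cells entered (11447). Differences are of mean log2(CPM + 1), that is, with a pseudocount of 1, and shares have exact Clopper-Pearson 95% intervals. Gene positions and transcript lengths are from GENCODE M21 on GRCm38. Of 98 pathway genes, 97 matched by symbol and 1 by identifier (Tle5, listed as Aes). Named pathway genes are up to 6 per comparison with the largest difference past the rule and up to 4 per list with the most cells above background, in part of which the text gives values, and 3 genes per member by correlation (without Gm, Rik, LOC, date, mitochondrial and ribosomal protein symbols). The rule was tested on simulated data. Members, lists, limits and classes were chosen with earlier results of these data known. No doublet caller was run because cells were picked singly. Python 3.11.15, numpy 2.4.6, pandas 2.3.3 and scipy 1.17.1 were used. Pseudocounts, filters, scaling, class limits, thinned reads and left-out cells were tried as alternatives.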

Additional observations from a re-analysis of the deposited data

How the results depend on the processing

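Among recomputed values, 535 of 556 for the main counts, called differences and antagonist counts, and 1662 of 1676 for single genes, moved by less than the spread over cells, or by less than 1.5 times for counts of genes. The spread is a wide bound. Wif1 at 4.34 instead of 5.97 did not count as moved, with a pooled SD of 2.80. For Sfrp4 (-1.82 in Ibsp-high cells minus the rest) the pooled SD of 4.22 exceeded the difference itself. These totals therefore do not show that the values are stable. Of the values that stayed, 376 and 931 came from leaving out 1 cell, a change that keeps most cells of every class in place. With a pseudocount of 10 CPM, 3 main values stayed and 11 moved. None of the called differences changed sign. Over all alternatives the difference of Wif1 between Ibsp-high cells and the rest ran from 4.34 to 6.60, that of Lrp4 from 2.47 to 6.94 and that of Fzd9 between Otos-high cells and the rest from 4.24 to 6.63. The pseudocount moved most. With 0.1 CPM, 588 genes were higher in Ibsp-high and 569 in Otos-high cells than in the rest, and Lrp4 differed by 6.94 between Ibsp-high cells and the rest and by 7.41 between Ibsp-high and Otos-high cells. With 10 CPM, the genes higher and lower than in the rest were 139 and 101 for Ibsp-high, 127 and 61 for Otos-high and 555 and 359 for C1qb-high cells. Between Ibsp-high and Otos-high cells they were 239 and 278, and Lrp4 differed by 2.47 from the rest and 2.48 from Otos-high cells, and Fzd9 by -5.98. A larger pseudocount shrinks differences of low genes by construction.

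With each cell left out in turn, the genes higher in C1qb-high cells than in the rest were 782 to 1244. Without the cells with Car3 at 1000 CPM or more in the rest, 273 genes were lower in Otos-high cells. Without those under 1000 CPM, 377 genes were lower in Ibsp-high and 241 in Otos-high cells, and the cause was not tested. With 1 CPM as the limit, at least 1 antagonist was held by 12 of 12 Ibsp-high and 3 of 4 C1qb-high cells. Wif1 then counted in 4 of 9 Otos-high cells, 3 of 4 C1qb-high cells and 10 of 21 cells of the rest, and led in 16 cells. A lower limit counts lower values by construction. At class limits 10 times lower, 2 cells passed 2 limits and were put in the class whose marker was farthest above its limit. No paired analysis was possible because there is 1 labelled group. Thinning every cell to 2522853 reads moved none of 18 main values and 81 values of single genes beyond those bounds. The splits by Car3, leaving out cells 20, 22 and 42 or cell 31, and the other transcript lengths were chosen after seeing the data.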
